A study of Oryza sativa with 8 samples.

Results

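Cytochrome P450 genes with measurable transcripts were described in rice roots, with and without root-specific overexpression of the transcription factor gene OsERF48. The 118 genes were chosen by their annotation and level. Of 37869 gene rows, 291 had P450 in their description, and 120 of these had a mean of at least 1 FPKM over 8 libraries. FPKM is the number of fragments assigned to a gene, scaled for its length and for the depth of the library. The rule left out 2 of the 120 by their identifiers. The other 171 P450 rows were below 1 FPKM, and 37 of them were listed at 0 in every library. The weakest genes inside the limit were Os01g0728300, with a mean of 1.07 FPKM, and Os02g0503900, with 1.05 FPKM. The closest outside were Os11g0143200, with 0.980 FPKM, and Os06g0641200, with 0.979 FPKM. Since the levels set the choice, they are given below as a description. In 3 of the 118 genes the ROX mean was under 1 FPKM, Os09g0530275 among them with 0.732 FPKM. In 2 the NT mean was, Os12g0150200 with 0.965 FPKM and Os03g0223100 with 0.356 FPKM. These named genes passed the limit only through the genotype where they were higher. They are among the genes called below, so their calls are a description too. A further 3 rows reached 1 FPKM in the mean of a single genotype and stayed outside.

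The ROX libraries came from roots of 2-week-old ROX OsERF48 plants, which are rice of the cultivar Ilmi that carries OsERF48 behind the root-specific RCc3 promoter. The NT libraries came from roots of nontransgenic Ilmi of the same age, and both were grown without stress. There were 4 ROX and 4 NT libraries in a pair of library sets named after the word in their column names, with 2 ROX and 2 NT libraries each. The Root names give the promoter or the cultivar, while the Set names give no promoter, cultivar or tissue. The Set libraries were taken as ROX and NT roots because the series lists no other OsERF48 or nontransgenic samples. No name gives the transgenic line, so the lines #2 and #6 were pooled. Whether a library set holds a single line is not known, so differences between the sets, interactions included, cannot be told apart from differences between the lines. The study prepared biological replicates with technical replicates of each, and the names do not tell these apart, so p-values may measure technical spread only.

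Cytochrome P450 enzymes are haem monooxygenases that insert an oxygen atom into their substrate, with electrons passed on by an NADPH-dependent reductase in the endoplasmic reticulum. Plants carry large families of them. Some make or break down hormones, sterols and carotenoids, others hydroxylate the fatty acids of cutin and suberin or the precursors of lignin and flavonoids, and many act in defence metabolism or detoxification. P450 genes often lie in tandem arrays of near copies.

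OsERF48 was higher in every ROX library than in any NT library. It had 464 and 470 FPKM in Root ROX and 816 and 612 FPKM in Set ROX, against 86.6 and 86.2 FPKM in Root NT and 65.9 and 59.3 FPKM in Set NT. Depth, estimated from the steps of low FPKM values, was 36600000 to 42700000 fragments in the Root and 45700000 to 48800000 in the Set libraries. Averaged over the libraries, each of the 118 genes had about 13 to 9927 fragments, and single libraries can lie outside this range. Across the 118 genes, log2(FPKM + 1) correlated at 0.939 to 0.997 within a set and at 0.740 to 0.792 between the sets. RCc3, a root marker, had 152 and 161 FPKM in Root ROX against 321 and 307 FPKM in Root NT, and 1581 and 1540 FPKM in Set ROX against 1236 and 1608 FPKM in Set NT. The summed FPKM of 22 leaf marker genes (chlorophyll-binding proteins and the small subunit of Rubisco) was 39.6 and 41.7 in Root ROX against 60.5 and 57.0 in Root NT, and 17.8 and 16.8 in Set ROX against 25.1 and 23.9 in Set NT. At least 1 FPKM was reached by 5 to 8 of these markers in the ROX libraries and by 7 to 11 in the NT libraries, and 4 were listed at 0 in every library. The part of these differences in the results below was not tested, and in whole roots fewer cells of a type and less RNA per cell cannot be told apart.

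The 118 genes spanned a wide range of levels. Their median was 5.29 FPKM, 39 had at least 10 FPKM and 58 had under 5 FPKM. In sum they took 0.214 to 0.222% of all FPKM in the ROX libraries and 0.207 to 0.222% in the NT libraries, so the ranges overlapped. The 8 most abundant genes held 42.5% of the total of the 118. First among them was Os09g0441400, described as an elicitor-inducible P450, with 174 and 195 FPKM in Root ROX and 195 and 188 FPKM in Root NT, and with 46.9 and 80.4 FPKM in Set ROX and 132 and 94.2 FPKM in Set NT. Its Root libraries overlapped, while both Set ROX libraries were below both Set NT libraries. Os10g0524700 had 167 and 172 FPKM in Root ROX against 234 and 223 FPKM in Root NT, and 69.1 and 93.1 FPKM in Set ROX against 69.8 and 59.9 FPKM in Set NT. Os05g0320700 had 150 and 163 FPKM in Root ROX against 87.1 and 85.3 FPKM in Root NT, and 113 and 137 FPKM in Set ROX against 125 and 137 FPKM in Set NT. These genes differed by genotype in the Root libraries and overlapped in the Set libraries. None of the 8 reached a call in any comparison. In those comparisons, described below, 0.314 to 3.99% of all tested genes were called in a given direction.

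**Figure D1:**
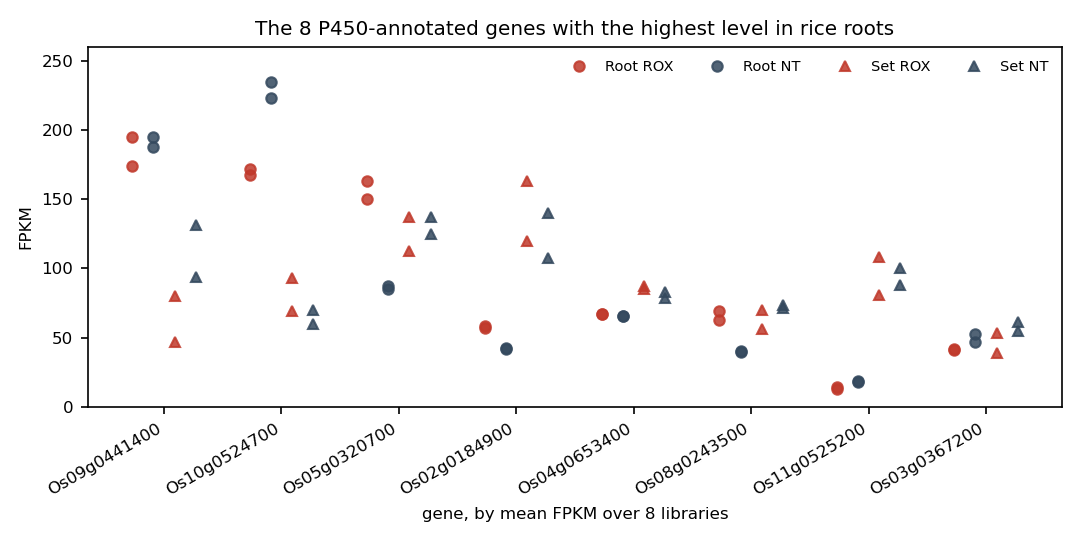
FPKM in each library (y axis) of the 8 P450-annotated genes with the highest mean level (x axis), with ROX in red, NT in blue, Root libraries as circles and Set libraries as triangles. Os11g0525200 lies between 13.0 and 18.9 FPKM in the Root libraries and between 81 and 109 FPKM in the Set libraries of either genotype.

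To find which P450 genes differed between the genotypes, limma was fitted to log2(FPKM + 1) of the 26136 genes with a mean of at least 0.5 FPKM, with the library set as a covariate. A gene was called at a 2-fold change and an unadjusted p under 0.05, the limits the study used. Of the 118 genes, 2 were called higher in ROX roots, Os12g0150200 and Os11g0151400, where 1.31% of all tested genes were called higher. Os12g0150200 passed the level limit of the choice only through its ROX mean, so its call is a description. Another 2 were called lower, Os08g0507702 and Os03g0417700, where 0.314% of all tested genes were called lower. The count of lower calls was 7 with a pseudocount of 0.1 in place of 1, and 0 with quantile normalization or scaling by median ratios. The shares of all tested genes at these settings are not given. The log2 fold changes of the 118 ran from -1.03 to 1.05 with a median of -0.08, and the median of all tested genes was -0.05. In 102 genes, or 86.4%, the log2 fold change was within 0.5 of 0, against 91.9% of all tested genes. The 118 genes had a mean of at least 1 FPKM, while all tested genes had at least 0.5 FPKM. Since log2(FPKM + 1) understates folds of low genes, comparisons with all tested genes, here and below, are not at a like level.

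Within the sets more genes were called. In the Root libraries alone, 5 of the 118 were called higher, with 3.99% of all tested genes called higher, and 5 were called lower, with 0.937% of all tested genes called lower. In the Set libraries alone, 2 were called higher beside a background of 0.888%, and 1 was called lower beside 0.597%. These made 13 genes, each called in a single set, and none of the 118 was called in both. On log2(FPKM + 1), no gene was at least 2-fold higher in both sets, where 0.341% of all tested genes were, and none was at least 2-fold lower in both, where 0.122% were. On mean FPKM without the added 1, Os03g0223100 was more than 2-fold higher in both sets, and Os01g0854800, Os08g0507702 and Os09g0530275 were more than 2-fold lower in both. The share of all tested genes on this measure is not given, so this is a description. Os03g0223100 and Os09g0530275 also passed the level limit only through the genotype where they were higher. The sign of the difference was the same in both sets for 66 genes, or 55.9%, against 54.5% of all tested genes. The remaining 105 genes were called in no comparison. At an adjusted p under 0.05, limma gave 72 of the 118 genes (61.0%, beside 49.9% of all tested genes) from the Root libraries but 3 (2.54%, beside 1.19%) from the Set libraries. The Root pairs lay closer together, with a variance of 2.07 times the sampling noise in ROX and 1.18 times in NT, against 5.80 and 4.36 times in Set ROX and Set NT.

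**Figure D2:**
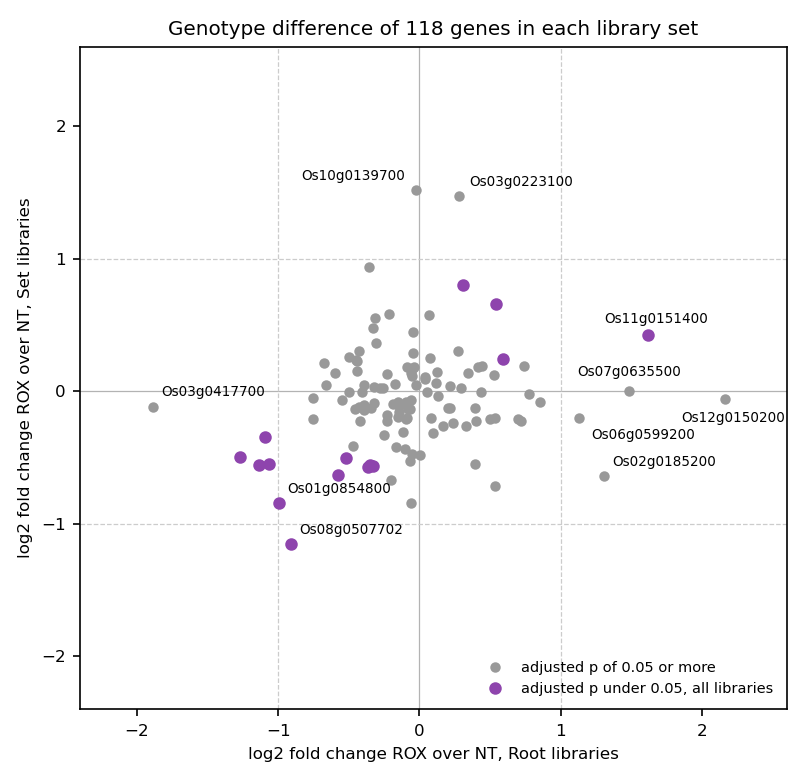
Log2 fold change of ROX over NT for the 118 genes in the 2 + 2 Root libraries (x axis) and in the 2 + 2 Set libraries (y axis), on log2(FPKM + 1), with dashed lines at 2-fold. No point lies past 2-fold on both axes in the same direction, while Os12g0150200, Os07g0635500 and Os03g0417700 lie far out on the Root axis and near 0 on the Set axis.

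The families of fatty acid hydroxylases, CYP86 and CYP94, held the difference with the smallest adjusted p of the 118 in the fit over all libraries. Of 6 genes placed here by family number, 1 was called higher over all libraries, the CYP94C20-like Os12g0150200, and none was called lower. Of all tested genes, 1.31% were called higher and 0.314% lower. The median log2 fold change of the 6 was -0.23. Os01g0854800 is described as similar to CYP86A1, a fatty acid omega-hydroxylase that in Arabidopsis makes monomers of root suberin. It lies at chromosome 1, bases 36840077 to 36842114 (IRGSP-1.0). It had 4.01 and 4.49 FPKM in Root ROX against 9.35 and 9.61 FPKM in Root NT, and 3.16 and 3.69 FPKM in Set ROX against 7.0 and 6.85 FPKM in Set NT. All 4 ROX libraries lay below all 4 NT libraries. The log2 fold change was -0.92 ± 0.07 (SE), with an adjusted p of 0.000949 by limma, and the values in the sets were -1.0 ± 0.07 and -0.84 ± 0.11. The change fell short of 2-fold on log2(FPKM + 1) and so was not a call. With a pseudocount of 0.1 it was -1.07 and a call, and on mean FPKM ROX was at 0.449 of NT in the Root and 0.495 of NT in the Set libraries.

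Os12g0150200, similar to CYP94C20, was the call of this group. In Arabidopsis the CYP94C enzyme oxidises the jasmonate hormone conjugate and so inactivates it, so by that role the gene would also count as a hormone gene. The gene, at chromosome 12, bases 2467929 to 2469700, had 4.68 and 5.45 FPKM in Root ROX against 0.350 and 0.356 FPKM in Root NT. In the Set libraries it had 1.63 and 1.30 FPKM in ROX against 1.37 and 1.79 FPKM in NT. The Root libraries were thus 14.4-fold apart on mean FPKM, and the Set libraries overlapped. All 8 libraries together gave a log2 fold change of 1.05 ± 0.42 (SE), with a limma p of 0.037 and an adjusted p of 0.154. The call was lost on leaving out any single Root library, with log2 fold changes of 0.79 to 0.86, on averaging the pairs and with the replicate number as a block.

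The other fatty acid hydroxylases were not called in any comparison, where 0.314 to 3.99% of all tested genes were called in a given direction. Os10g0486100, a CYP86B1-like protein whose Arabidopsis relative also acts in suberin synthesis, had means of 24.8 FPKM in Root ROX against 26.0 FPKM in Root NT and of 18.8 FPKM in Set ROX against 27.1 FPKM in Set NT (log2 fold change -0.30 ± 0.14). A second CYP86A1-like gene, Os03g0140200, had means of 4.37 FPKM in Root ROX against 6.37 FPKM in Root NT and of 10.9 FPKM in Set ROX against 11.9 FPKM in Set NT (-0.29 ± 0.10, adjusted p = 0.109 by limma). Os06g0146700, similar to CYP86A35, had a log2 fold change of 0.05 ± 0.11. Os05g0382500, similar to CYP94E4, varied least of all 118 genes over the 8 libraries, with 2.12, 2.59, 2.45 and 2.46 FPKM in ROX against 2.93, 2.51, 2.92 and 2.97 FPKM in NT (SD of 0.12 on the log2 scale).

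None of the 6 genes on the hormone list, which does not hold the CYP94C20-like gene, was called in any comparison. Of all tested genes, 0.314 to 3.99% were called in a given direction, so no call among 6 genes is near these shares. Of the 6, 4 belong to brassinosteroid synthesis by description or family, and their levels differed more by library set than by genotype. Os03g0602300, named OsDWARF for the C-6 oxidase of brassinosteroid synthesis, had means of 4.13 FPKM in Root ROX against 4.30 FPKM in Root NT and of 11.9 FPKM in Set ROX against 10.5 FPKM in Set NT. Os04g0469800, or OsDWARF11, acts in the same pathway and had 1.43 and 1.44 FPKM in Root ROX against 2.07 and 1.98 FPKM in Root NT, and 12.9 and 12.2 FPKM in Set ROX against 7.86 and 8.65 FPKM in Set NT. It was lower in Root ROX (log2 fold change -0.32, adjusted p = 0.016 by limma) and at 0.55 in the Set libraries (adjusted p = 0.092), and the sets differed (interaction -0.87, adjusted p = 0.0028). The CYP90D10-like gene Os05g0200400 and the CYP90A1-like gene Os12g0139300 had log2 fold changes of 0.03 ± 0.06 and -0.05 ± 0.11.

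The remaining hormone genes act on other steps. Os07g0647200 is similar to CYP734A7, of a family that inactivates brassinosteroids, and had 23.1 and 25.9 FPKM in Root ROX against 31.5 and 29.5 FPKM in Root NT. In the Set libraries it had 17.4 and 21.4 FPKM in ROX against 15 and 14.6 FPKM in NT, the opposite direction, and the interaction was -0.67 (adjusted p = 0.018 by limma). Os06g0570100, the ent-kaurene oxidase of gibberellin synthesis, had 10.9 and 10.9 FPKM in Root ROX against 10.6 and 10.4 FPKM in Root NT, and 6.62 and 6.71 FPKM in Set ROX against 6.44 and 6.95 FPKM in Set NT. Its log2 fold change of 0.02 had a standard error of 0.05.

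The 5 phenylpropanoid and flavonoid genes gave no call and a median log2 fold change of -0.29. With 0.314 to 3.99% of all tested genes called in a given direction, no call among 5 genes is near these shares. Os03g0367200, described as a flavonoid 3',5'-hydroxylase, is a short row of chromosome 3 (bases 14387290 to 14387596). It had 41.0 and 42.1 FPKM in Root ROX against 52.7 and 46.8 FPKM in Root NT, and 53.6 and 39.1 FPKM in Set ROX against 61.0 and 55.0 FPKM in Set NT. In both sets the ROX values lay below the NT values (-0.29 ± 0.10, adjusted p = 0.117 by limma). The flavonoid 3'-hydroxylase-like genes Os10g0320100 and Os10g0317900, whose enzymes set the hydroxyl pattern of flavonoids, had log2 fold changes of -0.29 ± 0.11 and -0.44 ± 0.14, with adjusted p of 0.142 and 0.0906. Os05g0494000, similar to CYP98A1, of the family that hydroxylates lignin precursors, had 31.0 and 32.5 FPKM in Root ROX against 23.5 and 22.9 FPKM in Root NT, and 46.9 and 37.5 FPKM in Set ROX against 42.6 and 41.7 FPKM in Set NT. The Root libraries were apart and the Set libraries overlapped. Os03g0367101, also described as a flavonoid 3',5'-hydroxylase, varied little over the libraries, with an SD of 0.15 on the log2 scale.

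Of the 3 genes placed as sterol and carotenoid genes by family number, none was called. The shares of all tested genes called in a given direction were 0.314 to 3.99%. The CYP51H10-like gene is among them by this number alone, so a role in sterol synthesis is not shown for it. Os11g0525200 is similar to CYP51, the obtusifoliol 14-demethylase of sterol synthesis, and had 14.3 and 13.0 FPKM in Root ROX against 18.9 and 17.8 FPKM in Root NT, and 109 and 81 FPKM in Set ROX against 87.7 and 100 FPKM in Set NT. The CYP51H10-like gene Os05g0415800 had 10.8 FPKM in both Root ROX libraries against 15.2 and 15.1 FPKM in Root NT, and 28.5 and 33.7 FPKM in Set ROX against 24.7 and 27.7 FPKM in Set NT. Its difference changed sign between the sets (interaction -0.69, adjusted p = 0.011 by limma). Os02g0173100, of the CYP97 family, whose studied members hydroxylate carotenoids, had a log2 fold change of 0.16 ± 0.16.

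The 3 NADPH-cytochrome P450 reductases, which pass electrons to the P450 enzymes, were among the more abundant of the 118. Os04g0653400 had 67.4 and 67.1 FPKM in Root ROX against 65.4 and 65.3 FPKM in Root NT, and 87.3 and 85.3 FPKM in Set ROX against 79 and 83.2 FPKM in Set NT, with a log2 fold change of 0.07 ± 0.04. Os08g0243500 had 69.2 and 62.8 FPKM in Root ROX against 40.4 and 40.0 FPKM in Root NT, and 56.4 and 69.7 FPKM in Set ROX against 71.3 and 73.9 FPKM in Set NT. It was higher in Root ROX and lower in Set ROX without overlap in either set, and the interaction was 0.91 (adjusted p = 0.0055 by limma). Os09g0558900 had a log2 fold change of -0.28 ± 0.08 (adjusted p = 0.077).

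The other calls over all libraries fell among the 83 genes whose descriptions name no family. Os11g0151400, at chromosome 11, bases 2390496 to 2392366, had 5.48 and 5.93 FPKM in Root ROX against 1.18 and 1.19 FPKM in Root NT, and 2.26 and 2.50 FPKM in Set ROX against 1.42 and 1.63 FPKM in Set NT. All ROX libraries were above all NT libraries, by 4.83-fold in Root and 1.56-fold in Set means. Its log2 fold change was 1.02 ± 0.23 (adjusted p = 0.043 by limma), from 1.62 (Root) and 0.42 (Set), and the sets differed by 1.20 (adjusted p = 0.0011). On leaving out any single Root library it ended under 2-fold, at 0.88 to 0.92.

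Os08g0507702, at chromosome 8, bases 25132615 to 25134365, had 1.79 and 1.92 FPKM in Root ROX against 4.70 and 4.05 FPKM in Root NT, and 2.68 and 1.90 FPKM in Set ROX against 6.78 and 5.82 FPKM in Set NT. The ROX libraries lay below the NT libraries in both sets. Its log2 fold change was -1.03 ± 0.11 (adjusted p = 0.0032 by limma), from -0.91 (Root) and -1.16 (Set). The value ended just short of 2-fold under quantile normalization or scaling by median ratios, without the second Set ROX library, at -0.94, and without the first Set NT library, at -0.97. Os03g0417700, whose description reads phytochrome P450, had 0.584 and 0.658 FPKM in Root ROX against 5.14 and 4.84 FPKM in Root NT, and 5.78 and 7.33 FPKM in Set ROX against 6.83 and 7.50 FPKM in Set NT. It was low in the Root ROX libraries alone. The 8 libraries together gave a log2 fold change of -1.0 ± 0.33, with a limma p of 0.018 and an adjusted p of 0.109. In the Root libraries it was -1.89 and in the Set libraries -0.12, and the call was lost on leaving out any single Root library, at -0.81 to -0.84, without the covariate, with averaged pairs, and under either scaling, at -0.97 and -0.98.

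**Figure D3:**
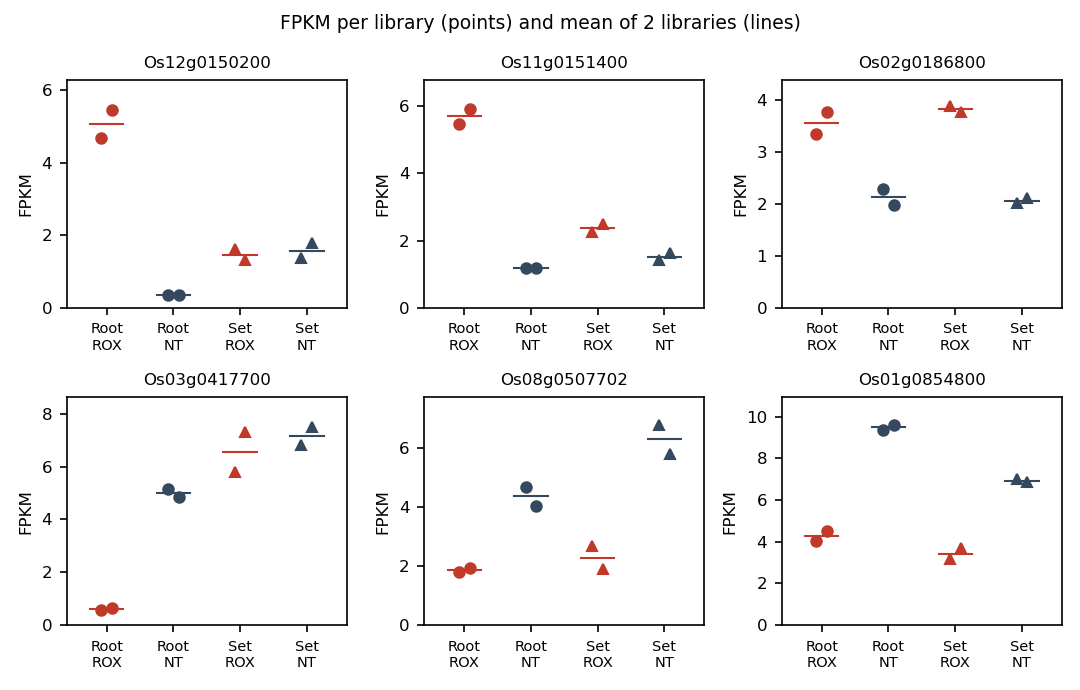
FPKM of 6 genes in each library (points, 2 per group) with the mean of each group (lines), for Root ROX, Root NT, Set ROX and Set NT from left to right in each panel. Os01g0854800 and Os08g0507702 are lower in ROX in both sets, and Os02g0186800 is higher in both, while the differences of Os12g0150200 and Os03g0417700 are seen in the Root libraries.

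At an adjusted p under 0.05 over all libraries, with no limit on fold, more genes fell than rose, and Os08g0507702 and Os11g0151400 were among them. Of the 118 genes, 11 fell (9.32%, with 4.34% of all tested genes falling) and 4 rose (3.39%, with 2.74% of all tested genes rising). One fall, Os09g0530275, passed the level limit of the choice only through its NT mean. Of these 15 genes, 3 have a named family. No ROX library overlapped an NT library of its own set in any of the 15. The 15 were chosen by their p over these same libraries, so this follows in large part from the choice. The falls ran from -0.45 to -1.03 and the rises from 0.42 to 1.02 on the log2 scale. None of the 15 passed without the covariate, where 45 of all 26136 tested genes passed. None passed either when the 2 libraries of each genotype and set were averaged. Without the covariate, 8 of the 118 had an unadjusted p under 0.05. The shares of all tested genes for the averaged fit and for this unadjusted p are not given, so these counts are a description. Leaving out a library gave 3 to 12 falls and 1 to 4 rises. There were 3 or 4 falls and 1 rise on leaving out any single Root library. There were 7 falls without the first Set NT library and 2 rises without the second Set ROX library. The shares of all tested genes in these fits are not given, so the counts are a description.

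Besides Os01g0854800, the falls with like values in both sets included a pair of neighbours on chromosome 10. Os10g0167250, similar to CYP76H18, had 37.9 and 34.8 FPKM in Root ROX against 46.1 and 47.1 FPKM in Root NT, and 17.4 and 18.1 FPKM in Set ROX against 26.2 and 26.9 FPKM in Set NT. It had a log2 fold change of -0.45 ± 0.06 and that of its neighbour Os10g0167200 was -0.45 ± 0.09 (adjusted p = 0.0090 and 0.034 by limma). Both genes were lower in ROX in each set. Os10g0515200 had 7.84 and 8.88 FPKM in Root ROX against 13.2 and 12.6 FPKM in Root NT, and 4.24 and 3.00 FPKM in Set ROX against 6.69 and 5.53 FPKM in Set NT (-0.60 ± 0.10, adjusted p = 0.020). Os09g0447500 gave -0.52 (Root) and -0.51 (Set). Os01g0803900 gave -0.36 (Root) and -0.57 (Set).

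Other falls were larger in the Root libraries. Os01g0377000 and Os01g0377250, the second similar to CYP71K15, lie on top of each other at chromosome 1, bases 15581833 to 15583686 and 15582008 to 15582712, so their reads cannot be taken as separate. Os01g0377250 had 3.42 and 4.67 FPKM in Root ROX against 11.1 and 11.0 FPKM in Root NT, and 1.46 and 1.35 FPKM in Set ROX against 2.40 FPKM in both Set NT libraries. Its log2 fold changes were -1.27 (Root) and -0.50 (Set), and those of Os01g0377000 were -1.09 (Root) and -0.35 (Set). Os09g0530275 had 0.916 and 0.903 FPKM in Root ROX against 2.75 and 3.27 FPKM in Root NT, and 0.481 and 0.627 FPKM in Set ROX against 1.16 and 1.4 FPKM in Set NT. All its ROX libraries were below all its NT libraries (-0.81 ± 0.12, adjusted p = 0.013 by limma).

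Among the rises, Os02g0186800 was the most even. It had 3.34 and 3.76 FPKM in Root ROX against 2.28 and 1.97 FPKM in Root NT, and 3.89 and 3.77 FPKM in Set ROX against 2.01 and 2.11 FPKM in Set NT, so that the genotypes did not overlap. Its log2 fold change was 0.60 ± 0.07 (adjusted p = 0.0054 by limma), from 0.54 (Root) and 0.66 (Set). Os10g0172100 had 1.39 and 1.29 FPKM in Root ROX against 0.941 and 0.835 FPKM in Root NT, and 4.35 and 4.64 FPKM in Set ROX against 2.10 and 2.20 FPKM in Set NT. It was higher in each set and more so in the Set libraries (interaction -0.49, adjusted p = 0.026).

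**Figure D4:**
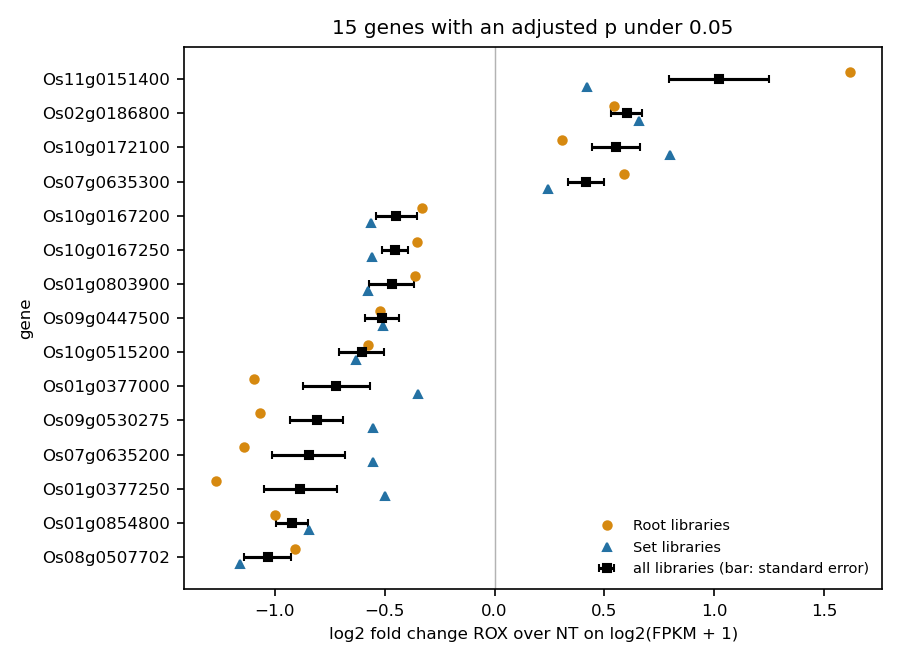
Log2 fold change of ROX over NT (x axis, on log2(FPKM + 1)) of the 15 genes with an adjusted p under 0.05 (y axis), with the value over all libraries and its standard error as a square, the Root value as a circle and the Set value as a triangle. The 4 rises are at the top and the 11 falls below, and in all 15 the Root and Set values have the same sign. The genes were chosen by their p over these same libraries, so the like signs are a description.

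Over all 8 libraries, the genotypes did not overlap in 7 of the 118 genes. ROX was higher in 4 (3.39%, beside 2.07% of all tested genes) and lower in 3 (2.54%, beside 3.3%). Besides Os11g0151400 and Os02g0186800, the higher genes were Os02g0186900 and Os06g0600400, with log2 fold changes of 0.24 and 0.30. The lower genes were Os01g0854800, Os08g0507702 and Os09g0530275. The last of them passed the level limit of the choice only through its NT mean, so its place in the count is a description. Within each set, ROX did not overlap NT and was higher in both in 11 genes (9.32%, beside 7.36% of all tested genes). It was lower in both in 22 (18.6%, beside 15.4%). The 11 hold Os03g0223100 and the 22 hold Os09g0530275, which passed the level limit only through the genotype where they were higher.

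For 34 of the 118 genes, or 28.8%, the genotype difference itself depended on the library set (limma interaction, adjusted p under 0.05), where 21.5% of all tested genes did. The Root value was above the Set value in 16 and below it in 18. Os02g0185200 had 4.57 and 4.88 FPKM in Root ROX against 1.36 and 1.26 FPKM in Root NT, but 1.87 and 2.92 FPKM in Set ROX against 3.72 and 4.82 FPKM in Set NT, so the direction turned. Os07g0635500 had 63.2 and 66.0 FPKM in Root ROX against 23.1 and 21.9 FPKM in Root NT, and 31.1 and 27.7 FPKM in Set ROX against 35.9 and 23.8 FPKM in Set NT. It was the most abundant of the genes called in the Root libraries, at a log2 fold change of 1.48, and 0.00 ± 0.20 in the Set libraries. Os06g0599200 had 2.46 and 2.76 FPKM in Root ROX against 0.584 and 0.724 FPKM in Root NT, and overlapped in the Set libraries, with 2.09 and 4.56 FPKM in ROX against 4.39 and 3.21 FPKM in NT.

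Other genes differed more in the Set libraries, where Os10g0139700 and Os03g0223100 were called higher. Os10g0139700 had 47.4 and 57.0 FPKM in Set ROX against 20.3 and 15.1 FPKM in Set NT, and 14.4 and 16.7 FPKM in Root ROX against 16.0 and 15.6 FPKM in Root NT. Os03g0223100 had 3.19 and 3.76 FPKM in Set ROX against 0.523 and 0.695 FPKM in Set NT, and 0.305 and 0.373 FPKM in Root ROX against 0.116 and 0.0904 FPKM in Root NT. Its mean FPKM was higher in ROX by 5.70-fold in the Set and 3.28-fold in the Root libraries, although the Root libraries were all below 1 FPKM, where log2(FPKM + 1) understates a fold. Os09g0447300, which was not called, had 16.6 and 22.2 FPKM in Set ROX against 9.43 and 9.66 FPKM in Set NT, and 15.2 and 14.6 FPKM in Root ROX against 19.6 and 19.1 FPKM in Root NT. Its ROX values lay above NT in the Set libraries and below NT in the Root libraries (interaction -1.29, adjusted p = 0.0027 by limma).

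The genes lay on all 12 chromosomes, with 20 on chromosome 1, 13 on chromosome 10 and 4 on chromosome 11 as the extremes. The 291 P450 rows formed 27 runs of at least 3 rows with starts within 100 kb, and 47 of the 118 genes lay in such runs. Neighbours did not always share a direction. Of the 118 genes, 53 overlap another annotated gene, among them Os08g0507702, Os03g0417700, Os07g0635200, Os09g0530275, Os10g0172100 and Os10g0515200, and whether strand was used in the counting is not given in the sources used here. A run of 4 on chromosome 7, from base 26367250 to 26396629, was expressed in full. In it Os07g0635200 was lower in ROX, with 1.51 and 1.71 FPKM in Root ROX against 4.62 and 4.85 FPKM in Root NT and 11.8 and 9.36 FPKM in Set ROX against 19.5 and 12.9 FPKM in Set NT (-0.85 ± 0.17, adjusted p = 0.030 by limma). The adjacent Os07g0635300 was higher, with 14.8 and 14.6 FPKM in Root ROX against 9.51 and 9.30 FPKM in Root NT and 5.95 and 6.41 FPKM in Set ROX against 5.10 and 5.05 FPKM in Set NT (0.42 ± 0.08, adjusted p = 0.030). Os07g0635500 is the third gene of the run, and Os07g0635700 the fourth, with -0.23 in either set.

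In a run of 10 P450 rows on chromosome 2, 4 were expressed, between bases 4740049 and 4828206, and their log2 fold changes over all libraries ran from 0.24 to 0.60. In the Set libraries 3 of the 4 were above 0, and Os02g0185200 was at -0.64. They were Os02g0184900, Os02g0185200, Os02g0186800 and Os02g0186900, and 1 of them, Os02g0186800, passed the adjusted p. A run of 9 rows on chromosome 1 held 6 of the genes, between bases 25040769 and 25118356, with log2 fold changes from -0.09 to 0.20. It held no call, where 0.314 to 3.99% of all tested genes were called in a given direction. Fragments of near copies may be shared out between such genes by the counting, so values of neighbours are less certain than those of single genes.

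Levels differed more between library sets than between genotypes, as they did for all tested genes. Among the NT libraries alone, the median absolute difference between Set and Root was 0.74 on the log2 scale, against 0.46 for all tested genes, while the genotypes differed by a median absolute 0.32 (Root) and 0.20 (Set) in the 118 genes and by 0.21 (Root) and 0.12 (Set) in all tested genes. At least 2-fold higher in Set NT than in Root NT were 23 genes (19.5%, beside 13.8% of all tested genes), and 13 were at least 2-fold lower (11.0%, beside 6.87%). After the gaps of Os11g0489250 and Os03g0760000 came that of the CYP51-like Os11g0525200, at 2.29 on the log2 scale. Os11g0489250 had 50.7 and 68.8 FPKM in Set NT against 1.72 and 1.97 FPKM in Root NT, and the ROX libraries showed the same, with 68.9 and 52.4 FPKM in Set and 2.34 and 2.62 FPKM in Root. Os03g0760000 ran the other way, with 0.255 and 0.18 FPKM in Set NT against 12.3 and 12.6 FPKM in Root NT. Os01g0211600 averaged 34.2 FPKM in Set NT and 6.98 FPKM in Root NT, and Os04g0573900 averaged 8.38 FPKM in Set NT and 40.2 FPKM in Root NT. What sets the library sets apart was not tested, and RCc3 and the leaf markers also differed between them, as given above.

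**Figure D5:**
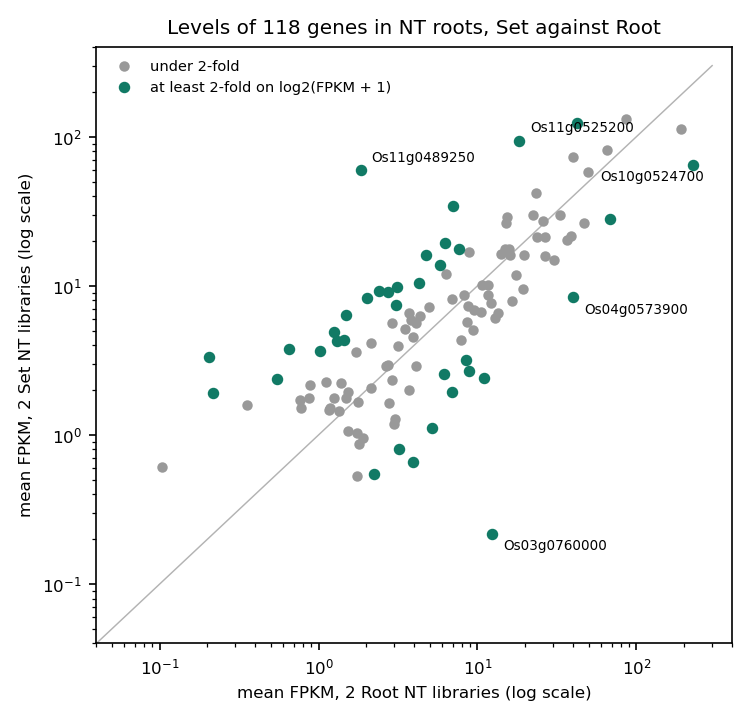
Mean FPKM of the 118 genes in the 2 Root NT libraries (x axis, log scale) and the 2 Set NT libraries (y axis, log scale), with the diagonal of equal levels. Green points mark the 36 genes at least 2-fold apart on log2(FPKM + 1), with Os11g0489250 highest above the diagonal and Os03g0760000 farthest below it.

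Genes whose descriptions name possible partners of P450 enzymes were also counted. Cytochrome b561 genes came in by wording alone, so a part beside P450 enzymes is not shown for them. Of 24 expressed genes with cytochrome b5 in their description, 9 of which are in fact cytochrome b561, 1 was called higher over all libraries and none lower, beside the 1.31% and 0.314% of all tested genes. It was the b561 gene Os01g0895300, with 25.1 and 29.4 FPKM in Root ROX against 9.54 and 8.32 FPKM in Root NT, and 27.4 and 18.7 FPKM in Set ROX against 14.8 and 16.0 FPKM in Set NT (1.02 ± 0.21, adjusted p = 0.036 by limma). Of 66 expressed UDP-glycosyltransferases, which attach sugars to hydroxylated products, 1 was called higher and none lower over all libraries, beside the same shares. In the Set libraries alone, 1 was called higher and 1 lower, beside 0.888% and 0.597% of all tested genes. The call over all libraries was Os01g0179600, with 12.3 and 9.46 FPKM in Set ROX against 0.417 and 0.502 FPKM in Set NT, and no more than 0.304 FPKM in any Root library (adjusted p = 0.119). The medians of these lists were -0.07 and -0.06, beside -0.05 for all tested genes.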

How the data were processed

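Total RNA of 2-week-old roots was made into strand-specific libraries by a modified TruSeq method and sequenced on a HiSeq instrument. FPKM values were deposited by the authors for genes and for transcripts, under RAP locus identifiers. The submitters' processing notes name the build IRGSP-1.0, and the aligner and quantification tool are not given in the sources used here. Starts counted from 0 were raised by 1. Column names tell ROX from NT libraries, and 4 columns that match no sample were not used here.

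Log2(FPKM + 1) of the 26136 genes with a mean of at least 0.5 FPKM was fitted by limma 3.58.1 in R 4.3.3 (eBayes with a variance trend), taking the library set as a covariate. Further fits used each set alone, or an interaction term. Fold changes are on this scale, which understates those of low genes. P-values were adjusted by the Benjamini-Hochberg method over all tested genes. Depth was estimated in Python 3.11.15 from FPKM steps, where 92.4 to 93.6% of low values lay within 0.1 of a whole fragment.

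The members and lists were chosen with earlier results of these data known. Of 58 members named, 34 follow the rule set with the design (the most abundant, those called, the largest interactions, those at the level limit, up to 3 per role, and the most and least variable). The others were chosen after their values were seen. Families and roles were read from descriptions, and clans from family numbers. Alternatives were another pseudocount, filters, scalings, no trend, sums over transcripts, no covariate, averaged pairs, a replicate block and leaving out each library.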

Additional observations from a re-analysis of the deposited data

Results flagged for a closer look

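Single libraries stood apart from the other 3 of their genotype in 3 of the 58 genes named, and chance does this in about 1 of 20 groups. Each gene gives a ROX and an NT group, so 3 is no more than chance would give. The groups also mix the library sets, which the rule does not allow for. Os05g0382500 had 2.51 FPKM in a Root NT library, below the others. Os07g0635500 had 35.9 FPKM in a Set NT library, above the others. Os08g0507702 had 2.68 FPKM in a Set ROX library, above the others.

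The log2 fold change of ROX over NT differed between the library sets in 22 of the 58 genes named, by limma's interaction test at an adjusted p under 0.05. Some of the 58 were named for this difference, so the count is a description. The Root value exceeded the Set value by 2.22 for Os12g0150200, by 1.95 for Os02g0185200, by 1.48 for Os07g0635500, by 1.33 for Os06g0599200 and by 1.20 for Os11g0151400. Smaller differences in this direction were 0.93 for Os05g0320700, 0.91 for the reductase gene Os08g0243500 and 0.35 for Os07g0635300. Root minus Set was -1.77 for Os03g0417700, -1.54 for Os10g0139700, -1.29 for Os09g0447300 and -1.20 for Os03g0223100. It was -0.87 for OsDWARF11 (Os04g0469800), -0.77 for Os01g0377250, -0.75 for the overlapping Os01g0377000, -0.73 for Os10g0524700 and -0.71 for Os03g0760000. For Os05g0415800 it was -0.69, for Os04g0573900 and Os07g0647200 -0.67 each, for Os09g0530275 -0.52 and for Os10g0172100 -0.49.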

How the results depend on the processing

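Calls near 2-fold moved with the settings, and no named gene that was called changed its direction. With a pseudocount of 0.1, 3 genes were called higher and 7 lower over all libraries. In the Root libraries 7 were then called higher and 7 lower, and in the Set libraries 4 higher and 2 lower. The shares of all tested genes under the settings of this paragraph are not given, apart from the adjusted p without the covariate above. Its counts are thus a description. With a minimum mean of 5 FPKM, which leaves out genes, 0 were called higher and 0 lower over all libraries, 1 higher and 1 lower in Root, 1 higher and 0 lower in Set, 22 depended on the set, and 1 rise and 6 falls had an adjusted p under 0.05. Quantile normalization and scaling by median ratios each gave 0 lower calls, since Os08g0507702 and Os03g0417700 ended just under 2-fold, at -0.97 to -1.0. Without the covariate 1 gene was called lower and 0 rises and 0 falls passed an adjusted p, and with pairs averaged 1 was called higher, 1 lower and 0 and 0 passed. With the replicate block 1 gene was called higher, and 0 rises and 3 falls passed. Same-numbered ROX and NT libraries deviated together with r = 0.024 in Root and 0.257 in Set, so the numbers were not taken as pairs. Leaving out each library gave 0 to 3 genes called higher and 1 to 3 lower over all libraries, 1 to 3 lower in Set, 18 to 43 that depended on the set, and 1 to 4 rises and 3 to 12 falls by adjusted p. Of the values of single genes under these settings, 988 stayed on their side of the threshold, 22 lost a call and 10 gained 1. Depth limits the weakest genes, down to a mean of about 13 fragments per library.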
